A study of Mus musculus with 109 samples.

Results

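The 10 genes described here encode doublecortins, stathmins and other proteins that bind tubulin or microtubules. They are Dcx, Dclk1 and Dclk2 (doublecortins), Pafah1b1 (the LIS1 protein), Map1b, Map2 and Mapt (microtubule-associated proteins, MAPs), and Stmn1, Stmn2 and Stmn3 (stathmins). They were chosen by symbol, and all 10 were found among the 15973 genes of the count table. mRNA was measured in 109 single cells of C57BL/6 mice at postnatal day 7, labelled as granule precursor cells from brain. Cells came from cerebella through a Percoll gradient and were captured on a C1 Fluidigm microfluidic chip. No treatment and no animal is named. By a code in their titles the cells form 6 library groups, of which 1 has 19 cells and 5 have 18. The expression level is given as CPM, that is the reads of a gene divided by all counted reads of its cell and multiplied by 1e6.

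Granule cell progenitors (GCPs) divide in the external granule layer of the postnatal cerebellum, leave the cell cycle, grow axons and migrate inward as granule cells (GCs). Both steps rest on microtubules. MAPs and doublecortins bind the microtubule wall and stabilize or bundle it, the LIS1 protein regulates the motor dynein, and stathmins bind free tubulin dimers and favour disassembly. DCX and LIS1 are known from human lissencephaly, in which migrating neurons stop short of their place.

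One member shares most of its coding sequence with another counted gene, which bears on every Stmn1 value below. Gm11223 is annotated as a processed pseudogene at chr4:69925630-69926079, minus strand (GRCm38, GENCODE vM21), on the same chromosome as Stmn1 but far from it. Its 450 bases matched the 450-base coding sequence of the transcript Stmn1-203 at 449 positions, an identity of 99.8% without gaps. The single substitution was A274G, counted from 1 at the A of the Stmn1 start codon. The stretch around it, coding positions 224 to 323 of Stmn1, is shown 5′ to 3′ for both genes, with the differing base in capitals.
Stmn1: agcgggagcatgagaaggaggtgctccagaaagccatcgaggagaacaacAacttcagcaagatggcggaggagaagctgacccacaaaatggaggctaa
Gm11223: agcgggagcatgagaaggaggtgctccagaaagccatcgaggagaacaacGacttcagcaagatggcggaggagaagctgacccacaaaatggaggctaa
Of the 401 windows of 50 bases in the Stmn1 coding sequence, 351 (87.5%) occurred unchanged in Gm11223. Over all Stmn1 transcripts, UTRs included, the shared windows were 17.9% of 1956. The deposited table holds reads for both genes, 57286 for Stmn1 and 40271 for Gm11223, so that Gm11223 held 41.3% of the reads of the pair. Gm11223 had a count in 107 cells, with a median of 91.9 CPM (0 to 264), and exceeded Stmn1 in 34 cells. A read from an identical stretch cannot be assigned to either gene by sequence, and how the counting treated such reads is not given in the sources used here, so the Stmn1 level is uncertain. No other member shared more than 0.68% of its windows with any single gene (Stmn2), and Dclk1, Dclk2, Map1b, Map2, Mapt and Stmn3 shared none.

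All members are protein-coding in the same annotation. Dcx lies on the minus strand at chrX:143855842-143933311 with 7 merged exons, Dclk1 on the plus strand at chr3:55242364-55539068 with 22, and Dclk2 on the minus strand at chr3:86786151-86920852 with 15. Pafah1b1 lies on the minus strand at chr11:74673949-74724670 with 11. Map1b lies on the minus strand at chr13:99421446-99516540 with 10, Map2 on the plus strand at chr1:66175273-66442583 with 24, and Mapt on the plus strand at chr11:104231390-104332090 with 16. Stmn1 lies on the plus strand at chr4:134468320-134473843 with 4, Stmn2 on the plus strand at chr3:8509360-8561606 with 5, and Stmn3 on the minus strand at chr2:181306459-181314500 with 5. Dclk1 overlaps exons of Gm42609 (87 bases) and Gm21954 (27 bases), and Map2 overlaps Gm10558 (124 bases), all on the other strand. Stmn1 shares 66 exon bases with the miRNA gene Gm23634 on the same strand. Whether the counting used strand is not stated, so reads of the overlaps on the other strand cannot be told apart, and those shared with Gm23634 cannot be told apart by strand at all.

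Total counts ran from 15071 to 8616017 per cell (median 3604792), and 70.9% of the values in the table were 0. Mki67, a gene of cycling cells, was at 100 CPM or more in 32 cells (Mki67-high), under 10 CPM in 75 cells (Mki67-low) and between these limits in 2 cells. Mki67-high cells had more detected genes (median 4967.5 against 4193). The label of the cells was checked against marker genes. The summed level of 16 cycling marker genes had a median of 8007 CPM in Mki67-high and 277 CPM in Mki67-low cells. Of the Mki67-low cells 46 of 75 were at 100 CPM or more of these genes, up to 17668 CPM, above the highest Mki67-high cell (15628 CPM). The 10 granule lineage genes summed to at least 100 CPM in 32 of 32 and 74 of 75 cells. Genes that define other cells of the cerebellum were present too: 39 of 109 cells carried 1 or more of the interneuron genes Gad1, Gad2 and Pax2, the astroglial genes Gfap, Aqp4, Slc1a3 and Gja1, or the oligodendrocyte genes Olig1, Olig2, Sox10 and Mog at 100 CPM or more. They were 11 of 32 Mki67-high and 28 of 75 Mki67-low cells. By type the classes differed: interneuron genes were at this level in 0 of 32 Mki67-high and 11 of 75 Mki67-low cells. Astroglial genes were so in 10 and 15 cells, and oligodendrocyte genes in 2 and 5 cells. For some members, sums or mean log2 differences are also given without the 39 cells.

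Among the doublecortins, Dcx was the one found in every cell. Dcx, whose protein marks young migrating neurons, ran from 0.221 CPM through a median of 935 CPM to 15827 CPM and had a count in 109 of 109 cells (100%, Wilson 95% interval 96.6 to 100%). Dclk1, which joins a doublecortin domain to a kinase domain, ran from 0 through 37.6 to 5529 CPM, with a count in 96 cells (88.1%, 80.7 to 92.9%). Dclk2, a kinase of the same build, ran from 0 through 0.226 to 1470 CPM, with a count in 57 cells (52.3%, 43.0 to 61.4%). The libraries carry no molecular identifiers. The intervals treat the cells as independent and leave out the spread between library groups. Most cells with Dclk2 held little of it: 11 cells reached 100 CPM, against 47 cells for Dclk1 and 83 cells for Dcx. Pafah1b1 ran from 0 through 16.1 to 4018 CPM and reached 100 CPM in 38 cells.

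Map1b, an early axonal MAP, was present at a high level in nearly all cells. It ran from 12.96 through 5675 to 33796 CPM and reached 100 CPM in 101 of 109 cells. Map2, the MAP of dendrites, ran from 0 through 195 to 6207 CPM and reached 100 CPM in 71 cells. Mapt, which encodes the axonal protein tau, was near the floor in many cells, with 1 to 5 counts in 44 of them. Its median was 0.990 CPM, 90 cells had a count (82.6%, 74.4 to 88.5%), and 31 cells reached 100 CPM, up to 4796 CPM.

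The stathmins differed in their spread over cells. Stmn1, the stathmin of dividing and young cells, ran from 0 through 117 to 1727 CPM, and the 11 cells with most of it held 31.3% of its summed CPM. Stmn2, a membrane-bound stathmin of growing axons, ran from 0 through 697 to 6513 CPM, with 39.0% in its 11 highest cells. Stmn3, a relative of Stmn2, ran from 0 through 49.6 to 2869 CPM, with 50.3% in its 11 highest cells. This share was lowest for Map1b (29.5%), 39.7% for Dcx, 54.9% for Map2, 57.5% for Dclk1, 64.7% for Pafah1b1, 74.4% for Mapt and highest for Dclk2 (89.0%). Over the genes within 1.5-fold of the same mean CPM, the median share was 23.1% for Map1b, 95.2% for Dclk2 and 85.5% for Stmn1. This is a description with no test. Stmn1 and Stmn3 (50.3%, against a median of 73.0%) lay below the lower quartile of such genes. Map1b, with only 6 such genes, and Dcx (39.7%, against a median of 31.2%) lay above the upper quartile. Mapt (74.4%, against a median of 71.2%) lay between the quartiles.

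Levels of different genes were compared per kilobase of merged exons, as the mean over cells. Map1b led with 431 CPM per kb and stood above the next gene in 6 of 6 library groups. Stmn3 (224), Stmn2 (197) and Dcx (174) followed. Stmn3 stood above Stmn2 in 3 of 6 library groups, Stmn2 above Dcx in 5 of 6, and Dcx above Stmn1 (78.0) in 6 of 6. Stmn1 stood above Map2 (48.6) in 4 of 6. Map2, Mapt (36.9), Pafah1b1 (35.5) and Dclk1 (28.5) were neighbours, each above the next in 3 or 4 of 6 library groups except Dclk1, which stood above Dclk2 (6.09) in 6 of 6. By the median over cells Stmn3 dropped from the second place to 43.6 CPM per kb, below Stmn2 (124), Dcx (73.9) and Stmn1 (60.9).

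**Figure D1:**
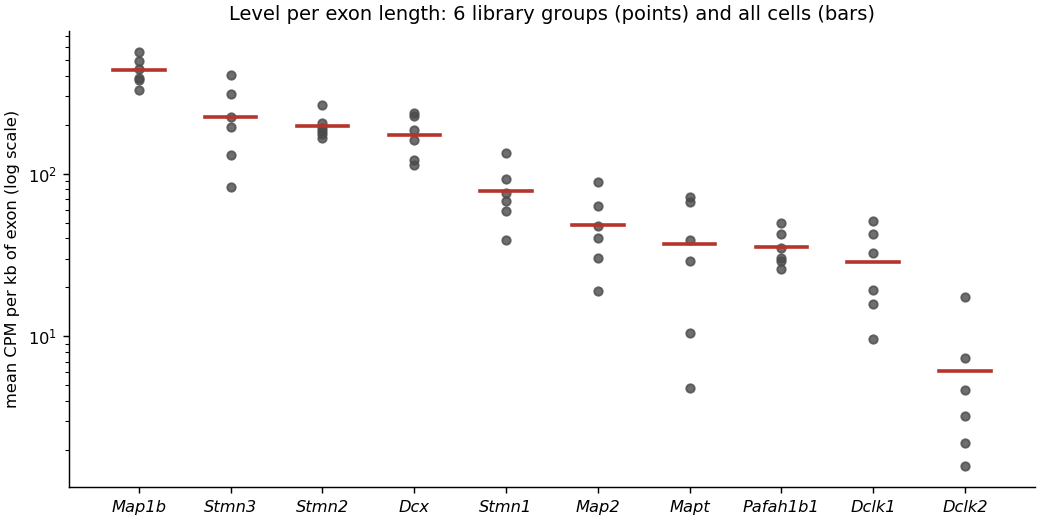
Level of the 10 genes as mean CPM per kb of merged exons on a log axis, with 1 point for each of the 6 library groups and a bar for the mean over all cells. Within every library group Map1b lies above all other genes, and by the bars over all cells Dclk2 is lowest.

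The first comparison set the 32 Mki67-high cells against the 75 Mki67-low cells, as cells with and without a strong mark of the cell cycle. Dcx, Mapt and Stmn2 had lower summed levels in Mki67-high cells in 6 of 6 library groups (3.2% of all genes tested did) and without overlap between the classes. The median cell held 239.6 CPM of Dcx in the Mki67-high class and 1781 CPM in the Mki67-low class. For Mapt these medians were 0.402 and 6.64 CPM, and 3 of 32 against 26 of 75 cells reached 100 CPM. For Stmn2 they were 412 and 948 CPM. The Mki67-high cells include the 2 cells with most detected genes, 13533 and 12684. These held 117 and 181 CPM of Mapt, and each had 7 of 8 astroglial genes at 50 CPM or more. Without them and the cell with the lowest total, the sums of Dcx, Mapt and Stmn2 still did not overlap.

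**Figure D2:**
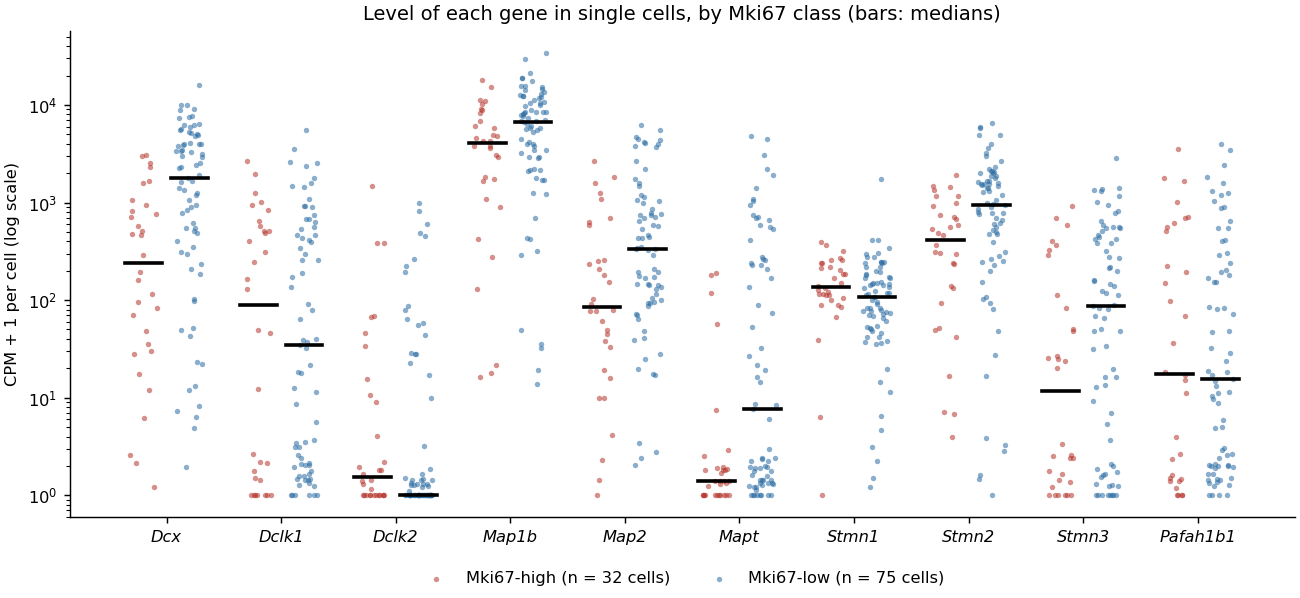
CPM + 1 of each gene in every Mki67-high and Mki67-low cell on a log axis, with 1 point per cell and a bar at the median. The medians of Dcx, Map1b, Map2, Mapt, Stmn2 and Stmn3 lie lower in Mki67-high cells. Those of Dclk1, Dclk2, Stmn1 and Pafah1b1 lie higher. Single cells of both classes overlap over most of the range.

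Cells are not replicates, so reads of all cells of one class were added up within each library group. The labels tie no library group to an animal, so that the spread between library groups may be technical and p-values measure only that spread. In library groups 1 to 6 the Dcx sum was 143, 1548, 1149, 46.2, 554 and 830 CPM in Mki67-high cells and 1658, 3743, 3753, 3177, 2302 and 2233 CPM in Mki67-low cells. Every Mki67-high sum was below every Mki67-low sum. The means were 712 ± 583 (SD, n = 6) and 2811 ± 873 (SD, n = 6), with a log2 fold change of -2.23 (SE 0.59). The edgeR quasi-likelihood test gave p = 0.00155 for it, adjusted p = 0.372 over the 9084 genes tested.

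The Mapt sum was 44.0, 1.07, 24.8, 19.9, 1.12 and 58.7 CPM in Mki67-high cells and 286, 506, 71.8, 231, 148 and 677 CPM in Mki67-low cells. The classes did not overlap. Its log2 fold change was -3.73 (SE 1.09, edgeR p = 0.00327, adjusted p = 0.422). The Stmn2 sum was 279.8, 559, 975, 696, 432 and 678 CPM in Mki67-high cells and 1050, 1470, 1522, 1136, 1338 and 1052 CPM in Mki67-low cells. The classes were again apart, with a log2 fold change of -1.23 (SE 0.38, edgeR p = 0.00527, adjusted p = 0.454). Among all genes tested, 0.451% had every Mki67-high sum below every Mki67-low sum, against 3 of the 10 members.

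**Figure D3:**
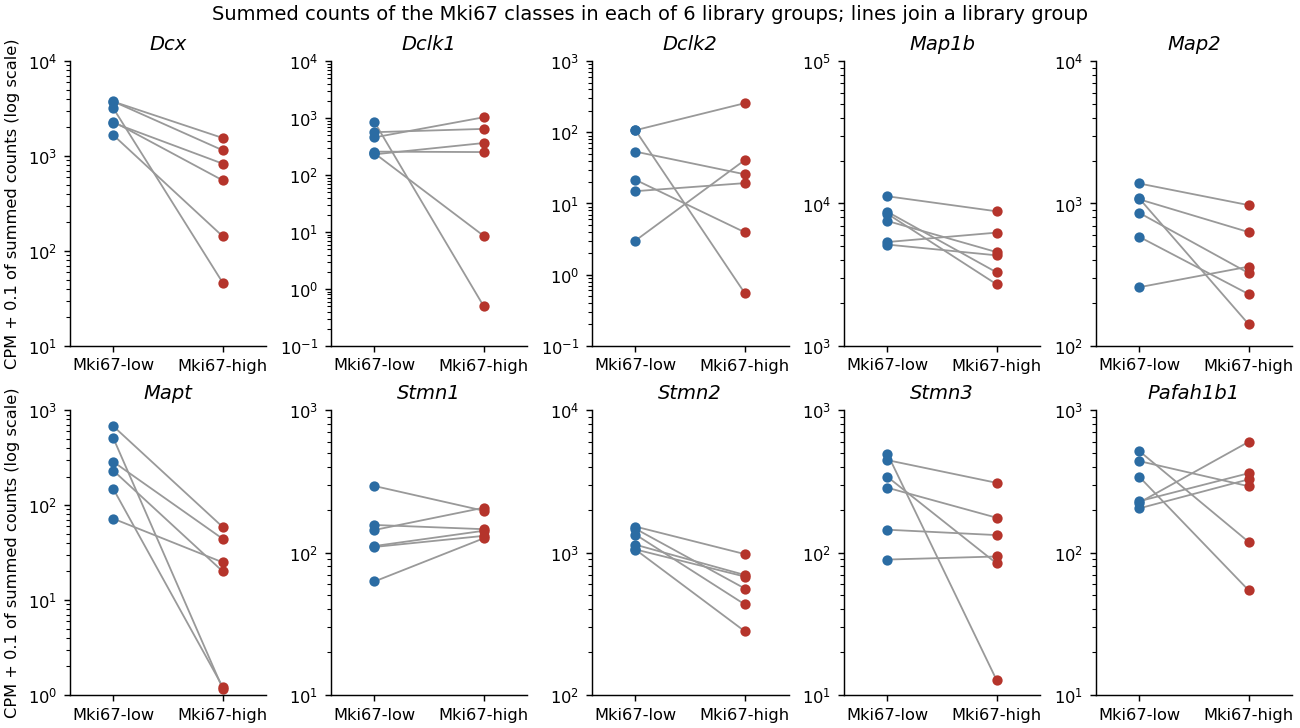
CPM + 0.1 of the counts summed over Mki67-high and over Mki67-low cells in each of the 6 library groups, on a log axis, with lines that join the sums of 1 library group. For Dcx, Mapt and Stmn2 every Mki67-high sum lies below every Mki67-low sum, and for the other 7 genes the sums overlap.

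No member was called at an adjusted p under 0.01 in edgeR. Of all genes tested, 0.022% were called higher and 0% lower, and these were Tacc3 and Cdc20, both genes of the mitotic spindle or its checkpoint. At an unadjusted edgeR p under 0.05, 267 genes (2.94%) were higher and 399 (4.39%) lower in Mki67-high cells, and among the members Dcx, Mapt, Stmn2 and Map1b were lower. The median log2 fold change was -0.83 over the 10 members and -0.18 over all genes tested. DESeq2 called Mapt lower (log2 fold change -3.44, adjusted p = 0.00908), beside 1.01% of genes called lower. Its adjusted p was 0.0961 for Dcx and 0.0856 for Stmn2, and limma on class means gave 0.0257 for Dcx and 0.0365 for Mapt.

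A sum follows the cells with most reads, so the mean log2(CPM + 1) over cells, which weights cells equally, was compared as well. It was lower in Mki67-high cells in 6 of 6 library groups for Dcx, with a difference of -2.61 ± 1.54 (SD, n = 6) on the log2 scale, for Map2 (-1.63 ± 1.001) and for Mapt (-2.71 ± 1.30). Among all genes tested 1.17% were lower in 6 of 6. The exact two-sided sign-flip permutation test gave p = 0.03125 for each of these 3 genes, the smallest p that 6 library groups allow, and an adjusted p of 0.345. Stmn2 was lower in 4 of 6 library groups on this scale, with a difference of -1.03 ± 1.17 (SD, n = 6). Over all genes tested the median of this difference was 0.43, above 0, and the part of the larger number of detected genes in Mki67-high cells was not tested.

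The classes overlapped for Map1b, Map2 and Stmn3. The Map1b sum ran from 2703 to 8808 CPM in Mki67-high and from 5146 to 11236 CPM in Mki67-low cells, with a log2 fold change of -0.78 (SE 0.29, edgeR p = 0.0177, adjusted p = 0.587). The Map2 sum ran from 142 to 974 CPM against 258 to 1381 CPM and was lower in 5 of 6 library groups. The Stmn3 sum ran from 12.6 to 309 CPM against 89.2 to 495 CPM, with a median cell at 10.8 against 86.1 CPM. Neither Map2 (log2 fold change -0.88, edgeR adjusted p = 0.769) nor Stmn3 (-1.29, edgeR adjusted p = 0.747) was called.

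The kinases Dclk1 and Dclk2 and the dynein regulator Pafah1b1 showed no common direction. The Dclk1 sum ran from 0.395 to 1032 CPM in Mki67-high cells and from 230.4 to 855 CPM in Mki67-low cells, and the difference of mean log2 values ran from -7.05 to 5.02 over library groups. The Pafah1b1 sum ran from 54.3 to 599 CPM against 204 to 516 CPM. Dclk2 ran from 0.449 to 256 CPM against 2.91 to 107 CPM. Their log2 fold changes of -0.14 (SE 1.05), -0.34 (SE 0.63) and -0.13 for Dclk1, Pafah1b1 and Dclk2 were smaller than the spread between library groups (edgeR adjusted p of 0.993, 0.929 and 0.994).

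Relatives within a family were compared by the difference of their class differences, 9 pairs in all. Dcx differed from Dclk2 by -2.83 on the log2 scale (lower in 6 of 6 library groups, exact sign-flip permutation p = 0.03125, adjusted over the 9 pairs 0.141). Stmn1 differed from Stmn2 by 1.57 (higher in 6 of 6, exact p = 0.03125, adjusted 0.141) and from Stmn3 by 2.19 (higher in 5 of 6, exact p = 0.0625, adjusted 0.1875). None of the 9 passed the correction. The Stmn1 sum itself ran from 126 to 206 CPM in Mki67-high cells and from 62.5 to 293 CPM in Mki67-low cells, a log2 fold change of 0.0095 (SE 0.74, edgeR adjusted p = 0.998). With the reads of Gm11223 added, the difference of mean log2 values was 0.56 ± 0.68 (SD, n = 6; higher in 5 of 6 library groups) in place of 0.53 ± 0.61. Gm11223 held 42.7% of the reads of the pair in Mki67-high and 40.6% in Mki67-low cells.

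Without the 39 cells that carried a gene of another cell type at 100 CPM or more, 21 Mki67-high and 47 Mki67-low cells remained. Mapt (0 to 19.9 against 64.0 to 1238 CPM) and Stmn2 (272 to 1151 against 1231 to 1729 CPM) still did not overlap. Dcx did overlap, with 40.7 to 2206 against 1965 to 4012 CPM, though its sum was lower in 6 of 6 library groups. The sums of Map1b and Map2 were also lower in 6 of 6, with overlap of the classes. On the mean log2 scale Mapt, Stmn2 and Stmn3 were then lower in 6 of 6 library groups, and Dcx and Map2 in 5 of 6. Gad1 and Pax2, markers of interneurons, were themselves lower in Mki67-high cells in 6 of 6 library groups by mean log2 values. Other genes of the same marker list were not: Gad2 was higher in 3 and lower in 2, and Lhx1 was higher in 6 of 6. The 9 interneuron and Purkinje genes found summed to a median of 448 CPM in Mki67-high and 142 CPM in Mki67-low cells. In the same order, the class sums of Lhx1 had means of 703 ± 285 and 311 ± 164 CPM (SD, n = 6). Those of Gad1 were 3.11 ± 5.77 and 239 ± 269 CPM, and those of Pax2 0.411 ± 0.520 and 42.8 ± 38.8 CPM. Gad2 stood at 1.78 ± 3.87 and 24.1 ± 35.9 CPM. The higher median was thus not shared by the sums of Gad1, Pax2 and Gad2. The part of these genes in the result was not tested. With class limits of 50 CPM and no count, 33 against 18 cells in 5 library groups, Stmn2 still did not overlap (279.8 to 696 against 866 to 2215 CPM) and Dcx and Mapt overlapped.

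Mki67-high cells did not lack Dcx: 19 of 32 cells (59.4%) reached 100 CPM, against 62 of 75 (82.7%) Mki67-low cells. These 19 cells, picked by their Dcx level, held a median of 756 CPM of Dcx. They held 674 CPM of Stmn2, against 295 CPM in the other 13 Mki67-high cells, and 186 against 112 CPM of Stmn1. Map1b and Map2 lay the other way, at 3629 against 4974 CPM and 76.4 against 209 CPM. The median of Mapt was low in both, at 0.390 and 0.801 CPM. Rbfox3 was at 100 CPM or more in 10 Mki67-high cells and under 10 CPM in 13. The median of Dclk1 was 354 CPM in the former and 11.4 CPM in the latter, and that of Stmn2 was 563 and 555 CPM. These medians are descriptions without a test. The 2 Mki67-high cells with most detected genes were among the 19 with Dcx and among the 10 with Rbfox3 at 100 CPM or more.

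The second comparison used the Mki67-low cells alone and set 32 cells with Rbfox3 at 100 CPM or more (Rbfox3-high) against 31 cells under 10 CPM (Rbfox3-low), with 12 cells between. Rbfox3 encodes NeuN, a nuclear protein of maturing neurons. The sums of Map1b and Stmn2 were higher in Rbfox3-high cells in 5 of 6 library groups, as were 11.3% of all genes tested in 5 or 6, but neither was called. By mean log2 values Dcx, Dclk1, Map2, Mapt and Stmn2 were higher in 5 of 6 (10.6% of all genes tested in 5 or 6) and Map1b in 4 of 6, and no member differed in the same direction in 6 of 6 by mean log2 values (1.74% of all genes tested were higher and 1.64% lower in 6 of 6). The median cell held 8196 CPM of Map1b in the Rbfox3-high class and 3485 CPM in the Rbfox3-low class. For Stmn2 these medians were 1359 and 309 CPM. For Mapt they were 62.4 and 0.759 CPM, and for Dclk1 56.8 and 2.52 CPM.

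In library groups 1 to 6 the Stmn2 sum was 1611, 1779, 1911, 1744, 786 and 1821 CPM in Rbfox3-high cells and 555, 1172, 1049.7, 316, 2230 and 595 CPM in Rbfox3-low cells. Library group 5 alone ran the other way. The Map1b sum ran from 5274 to 14088 CPM against 1421 to 9220 CPM, and its means were 9140 ± 3587 and 5249.5 ± 3143 (SD, n = 6). The log2 fold changes were 0.57 (SE 0.56) for Stmn2 and 0.66 (SE 0.42) for Map1b, with an edgeR adjusted p of 0.997 for both. The mean log2(CPM + 1) differed by 2.53 ± 2.39 for Stmn2 (exact sign-flip permutation p = 0.09375, adjusted 0.871) and by 2.03 ± 1.86 for Map1b (exact p = 0.125, adjusted 0.871; SD, n = 6).

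The sum of Mapt ran from 92.1 to 1488 CPM against 0.307 to 572 CPM and was higher in 4 of 6 library groups. That of Dcx ran from 1572 to 4636 CPM against 296 to 4347 CPM, with a log2 fold change of -0.030. Map2 ran from 102 to 2153 CPM against 465 to 1009 CPM, Stmn1 from 70.6 to 167 CPM against 39.3 to 184 CPM, and Stmn3 from 90.5 to 839 CPM against 32.4 to 558 CPM. For these genes the classes overlapped over most of their range. Among all genes tested, 0.169% had every Rbfox3-high sum above every Rbfox3-low sum and 0.152% the reverse. Dclk1, Dclk2 and Pafah1b1 overlapped as well, with differences of mean log2 values of 1.30, 0.0086 and 0.029 that were smaller than their SD of 2.28, 2.32 and 3.56 over the 6 library groups.

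**Figure D4:**
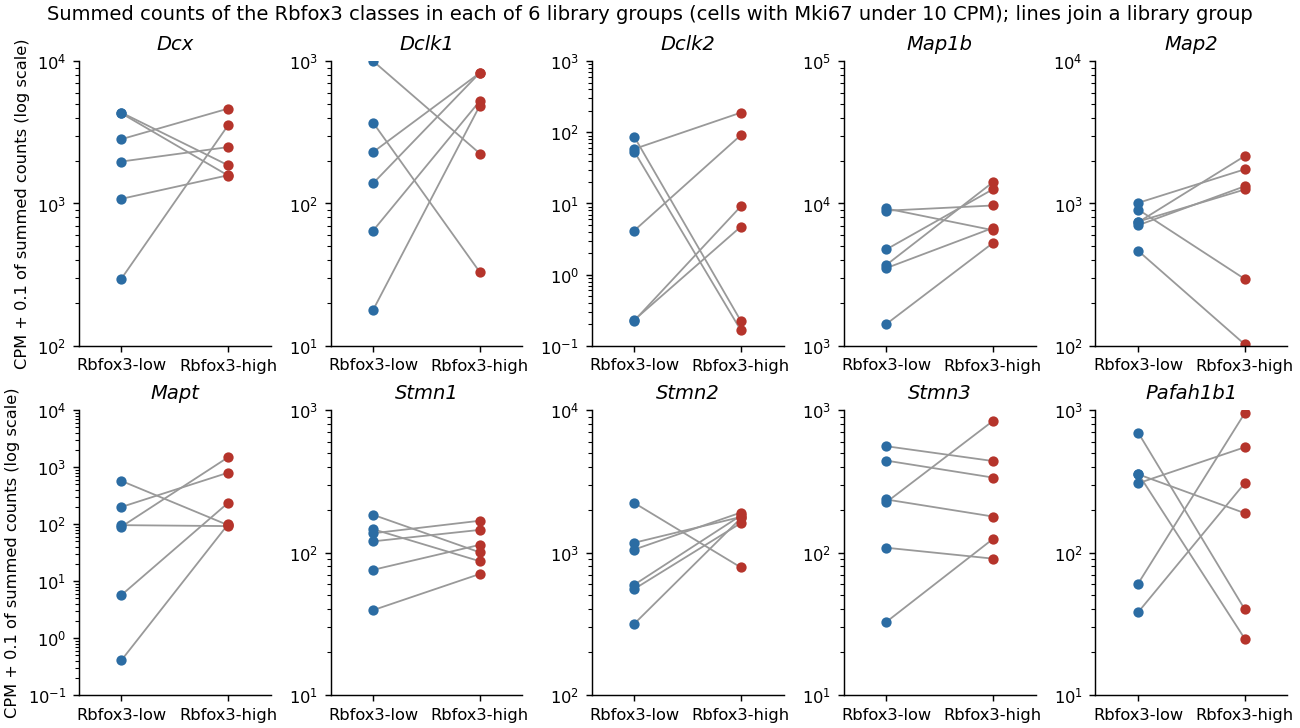
CPM + 0.1 of the counts summed over Rbfox3-high and Rbfox3-low cells among Mki67-low cells in each of the 6 library groups, on a log axis, with lines that join the sums of 1 library group. Map1b and Stmn2 lie higher in the Rbfox3-high sum in 5 of 6 library groups, and the classes of all 10 genes overlap.

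edgeR called no gene in this comparison (0% of 5907 tested in either direction), with 263 genes at an unadjusted p under 0.05 (2.07% higher, 2.39% lower) and no member among them. DESeq2 called 449 of 7709 genes (2.06% higher, 3.76% lower) and no member, and limma called 0%. The median log2 fold change was 0.49 over the members and -0.10 over all genes tested. Genes of other cell types were unevenly spread over the classes, though not all in one direction. Of the 11 such genes named above, 18 of 31 Rbfox3-low cells and 7 of 32 Rbfox3-high cells carried 1 or more at 100 CPM. The 12 astroglial genes summed to a median of 404 CPM (0.258 to 50499) in Rbfox3-low and 9.98 CPM (0 to 3375) in Rbfox3-high cells. The interneuron and Purkinje genes had medians of 361 and 68.7 CPM in the same order. The 8 oligodendrocyte lineage genes lay the other way, at 4.39 CPM in Rbfox3-low and 27.3 CPM in Rbfox3-high cells. Without the cells that carried 1 or more of the 11 genes, 25 against 13 remained. The difference of mean log2 values was then 0.83 in place of 2.53 for Stmn2, higher in 4 of 6 library groups. For Map1b it was 1.09 in place of 2.03 (higher in 5 of 6). For Dcx it was 0.38 in place of 1.37 (higher in 3 of 6). For Mapt it was 2.91 in place of 2.75, higher in 5 of 6 library groups. The part of other cell types in these differences was not tested further.

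Across cells, Map1b and Stmn2 were each the gene most like the other among 6607 genes with a count in at least 30 cells. Their Spearman correlation was 0.58 over 109 cells, 0.59 within the 75 Mki67-low cells and 0.41 within the 32 Mki67-high cells. Cells share library groups and differ in depth, and these correlations carry no test. Total counts correlated with Map1b at -0.061 and with Stmn2 at -0.049, and detected genes at -0.22 and -0.27. Other pairs of members were weaker over the 109 cells, such as Dcx with Stmn2 (0.29), Dcx with Mapt (0.28) and Map1b with Mapt (0.24). Dcx and Dclk1 stood at -0.090. Within the 32 Mki67-high cells, however, Map1b with Pafah1b1 (0.50), Dcx with Stmn1 (0.47) and Dcx with Stmn2 (0.44) lay above Map1b with Stmn2.

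**Figure D5:**
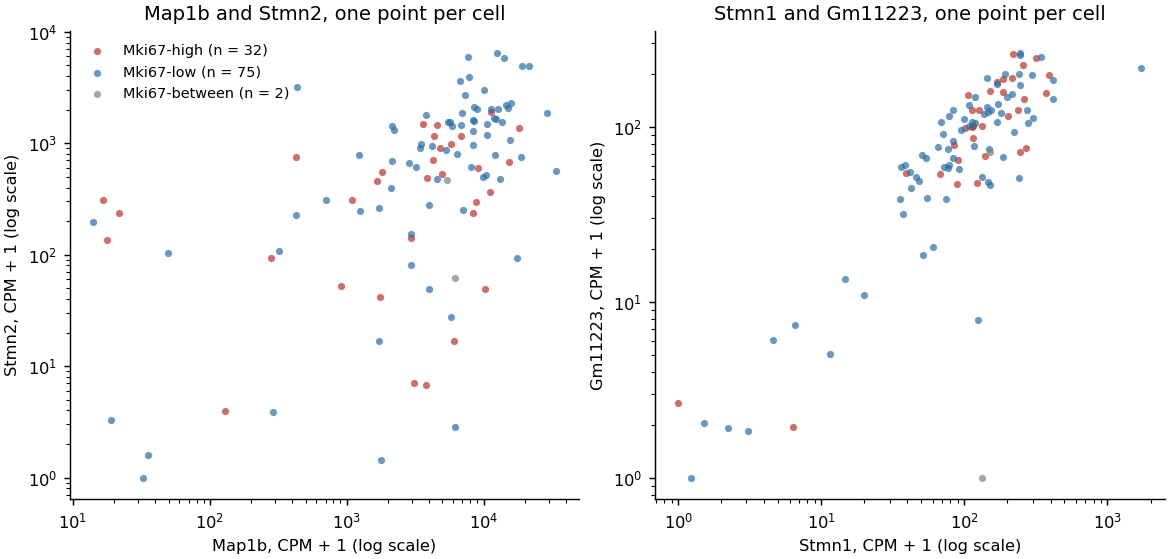
CPM + 1 of Map1b against Stmn2 and of Stmn1 against Gm11223 on log axes, with 1 point per cell coloured by Mki67 class. Spearman correlations over the 109 cells are 0.58 and 0.77, and 34 cells have more Gm11223 than Stmn1.

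The genes next most like Map1b were Ptprs (0.54), a receptor tyrosine phosphatase of axons, and Ppm1h (0.49). For Stmn2 they were Tmsb10 (0.56), which binds actin monomers, and Gap43 (0.49), a growth cone protein. Gap43 (0.44) was also next to Mapt, after Plxna2 (0.48), a semaphorin receptor, and before Tubgcp6 (0.40). Dcx was most like Sez6 (0.47), Cdk5r1 (0.44), the activator of the neuronal kinase CDK5, and Celf4 (0.42). Stmn1 was most like its copy Gm11223 (0.77), far above Ywhae (0.40) and Odc1 (0.37).

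The remaining members had weaker partners. Dclk2 was most like Golga7 (0.45), Ndufb7 (0.40) and Utrn (0.40), Stmn3 like Zfp414 (0.41), Fbxl5 (0.37) and Uchl1 (0.36), and Pafah1b1 like Wbp11 (0.40), Lamtor3 (0.38) and Rpl23a-ps3 (0.34). Dclk1 was most like Pnpt1 (0.35), Mapkap1 (0.34) and Nkd1 (0.34), and Map2 like S100b (0.35), Dcun1d1 (0.33) and Elmo1 (0.31). Weak correlations of this size in sparse counts are descriptions only.

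Map1b was under 100 CPM in 8 cells, which were singled out after their values were seen. Of these 3 were Mki67-high and 5 were Mki67-low with low Rbfox3, and none was Rbfox3-high. A gene of another cell type was at 100 CPM or more in 5 of them. In the cell with 18.1 CPM of Map1b, Gad1 was at 8205 CPM and Pax2 at 1489 CPM, and Stmn3 was at 1352 CPM with Stmn2 at 2.26 CPM. In the cell with 31.5 CPM of Map1b, Slc1a3 was at 13147 CPM, and Stmn2 had no count. In the remaining cells, in order of rising Map1b, Stmn2 was at 196, 307, 133, 237, 0.606 and 103 CPM.

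Other genes of microtubule regulation were counted from lists of related genes. Of 19 tested mitotic spindle MAPs, edgeR called 1 higher in Mki67-high cells (0.022% of all genes tested). Of the same list limma called 4 higher (75 of 9084 genes tested) and DESeq2 6 (267 of 10810 genes). At an unadjusted edgeR p under 0.05, 9 were higher (2.94% of all genes tested), and the median log2 fold change was 3.50, with a median difference of mean log2 values of 1.62. The called gene was Tacc3, which stabilizes spindle fibres (351 ± 208 against 0.350 ± 0.169 CPM, SD, n = 6; log2 fold change 9.88, SE 1.13, edgeR adjusted p = 0.00109). Its edgeR call was lost with library group as a block (adjusted p = 0.0286), without library group 2, 4, 5 or 6 (adjusted p = 0.0132 to 0.0179), and with class limits of 50 CPM and no count (0.113). Dlgap5, a spindle assembly factor, stood at 86.9 ± 209 against 0.126 ± 0.257 CPM, but library group 3 held 98.5% of its Mki67-high level, and the mean of the other 5 was 1.55 CPM. Haus2 and Tacc2 had the lowest values of the list, with log2 fold changes of -1.69 and -1.12. The medians of the members (-0.83) and of the spindle MAPs lay on opposite sides of that of all genes tested (-0.18). The classes were defined by Mki67, a gene of cycling cells, and the list was written with earlier results known. Its values are therefore a description and no test of the split.

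Of 13 tested neuronal MAPs and doublecortin relatives, edgeR and limma called none and DESeq2 called 1 lower (Mtus1), beside 1.01% of all genes. At an unadjusted edgeR p under 0.05, 3 were lower (4.39% of all genes tested). The median log2 fold change of the sums was -1.76, but the median difference of mean log2 values was 0.12, against -0.18 and 0.43 over all genes tested, and none was lower in 6 of 6 library groups. Map9 (-3.81) and Mtus1 (-3.72) had the lowest values of this list, and Map6d1 (3.68) and Mtus2 (4.52) the highest. Mtus1 stood at 23.1 ± 21.95 CPM in Mki67-high and 247 ± 208 CPM in Mki67-low cells (SD, n = 6). Its edgeR adjusted p was 0.428.

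edgeR, limma and DESeq2 called none among 17 Lis1 complex and dynein regulators, 20 plus-end and minus-end proteins, 16 severing and tubulin-modifying enzymes and 21 kinases and phosphatases that act on these proteins. In this order, the median log2 fold changes of the sums were -0.29, -0.68, -0.66 and -0.47, and the median differences of mean log2 values were 0.21, -0.10, 0.41 and 0.21, so that 3 of the 4 medians differed in sign between the scales. By mean log2 values, 4 Lis1 complex and dynein regulators were higher in 6 of 6 library groups, as were 716 of the 9084 genes tested. At an unadjusted edgeR p under 0.05, 3 plus-end and minus-end proteins were lower and 1 was higher, and 1 severing or tubulin-modifying enzyme was lower. Over all genes tested 4.39% were lower and 2.94% higher at this limit. Camsap2, which caps free minus ends, was at 46.3 ± 42.9 against 438 ± 339 CPM, and Gtse1, a plus-end protein of dividing cells, at 138 ± 178 against 3.42 ± 4.93 CPM (SD, n = 6). Library group 3 held 51.1% of the Gtse1 level, and the mean of the other 5 was 81.2 CPM. Agtpbp1, which trims glutamates from tubulin, was at 10.4 ± 10.3 against 63.7 ± 47.3 CPM. In the Rbfox3 comparison edgeR and limma called no gene of the 6 lists. DESeq2 called 1 Lis1 complex or dynein regulator lower, and 1 plus-end or minus-end protein higher and 1 lower. It also called 1 severing or tubulin-modifying enzyme higher and 1 lower, and 1 kinase or phosphatase higher. Over all genes DESeq2 called 2.06% higher and 3.76% lower in this comparison.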

How the data were processed

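RNA of 109 single cells was sequenced. Per the labels, the authors aligned reads to mm10 with STAR 2.4.1d, counted them per gene with HTSeq 0.6.1 and deposited raw counts. The annotation, strand setting and handling of reads with several positions are not given in the sources used here. CPM were computed here from column totals, all cells were kept, and no gene in the table had counts in fewer than 3 cells. Counts were summed by class and library group and tested with edgeR 4.0.16 (filterByExpr, TMM, quasi-likelihood) and Benjamini-Hochberg adjustment over all genes tested. DESeq2 1.42.0 and limma 3.58.1 were alternatives. Means of log2(CPM + 1) were compared by exact sign-flip permutation tests over library groups. Scripts were tested on simulated data. Shared sequence and merged exon lengths came from GENCODE vM21 (GRCm38). Members, gene lists and tests were chosen with earlier results of these data known. Named were the members, the 3 genes most correlated with each, the 2 highest and 2 lowest of each list and its called genes, and up to 4 abundant marker genes. Cdc20 and the genes of the Map1b-low cells were named after values were seen. Mki67 and Rbfox3 defined the classes and were not tested. Percentages of cells carry Wilson intervals at 95% confidence.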

Additional observations from a re-analysis of the deposited data

Results flagged for a closer look

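In sets of 6 library groups, a value far from the other 5 was looked for by Dixon's ratio at a limit of 0.625, which chance passes in about 1 of 20 sets. Of 60 sets, 3 passed it. Dclk1 in Mki67-low cells had a mean log2(CPM + 1) of 7.41 in library group 4, with 3.86 to 4.93 in the others. Stmn3 in Mki67-low cells had 3.91 in library group 5, with 5.48 to 6.17 in the others. The Dclk2 difference of mean log2 values, Mki67-high minus Mki67-low, was -1.74 in library group 1 and 0.044 to 1.07 in the others.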

How the results depend on the processing

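Over 11 alternatives to the edgeR fit, the Mki67 log2 fold change kept its sign for Dcx (-3.19 to -1.95), Map1b (-0.90 to -0.57), Mapt (-4.58 to -2.71), Stmn2 (-1.75 to -1.004) and Stmn3 (-2.14 to -0.99). Only DESeq2 called a member (Mapt). DESeq2 moved the median of all genes from -0.18 to 0.20. The number of genes called was 2, and it was 6 at an adjusted p under 0.05, 376 (267 higher, 109 lower) by DESeq2, 76 by limma, and 1 with thinned cells, without the 3 cells of unusual depth or without cells with astroglial genes. It was 0 with class limits of 50 CPM and no count, and 0 to 1 when leaving out a library group. With a replicate block for library group it was 0, and Dcx had -2.65 with an edgeR adjusted p of 0.0999. In the Mki67 comparison, sums of a library group correlated by 0.043 to 0.12 in their deviations, and the main edgeR fit did not take them as pairs. Every sum except that of library group 6 still correlated best with the sum of its own library group. The sign-flip permutation tests, the counts of library groups and the mean log2 differences did compare the classes within library groups. In the Rbfox3 comparison DESeq2 called 449 genes in place of 0. The number of members lower with Mki67 in every library group by mean log2 values was 3 (Dcx, Map2 and Mapt), or 3 to 4 when leaving out a library group. The number stayed at 3 in other settings, but the genes changed. They were Mapt, Stmn2 and Stmn3 without cells with genes of other types. With the limits of 50 CPM and no count they were Dcx, Stmn2 and Stmn3 (5 library groups). The number higher with Rbfox3 was 0, 5 with the limits of 50 CPM and no count (3 library groups) and 0 to 2 when leaving out a library group. The cause of these shifts was not tested. The limits of 50 CPM, the omitted cells and the added reads were chosen after seeing the data. Signs that turned belonged to small or scattered differences. In the Mki67 fold changes they were Dclk1 0.17 (DESeq2), Dclk2 0.19 (library totals), 0.22 (limma), 0.34 (without the cells of unusual depth) and 0.17 (without astroglial cells), Map2 0.079 and Pafah1b1 0.12 (limits of 50 CPM and no count), Pafah1b1 0.17 (thinned) and Stmn1 -0.053 (no filter). In the Rbfox3 fold changes they were Dcx 0.049 (library totals), 0.032 (no filter), 0.29 (replicate block), 1.37 (limma) and 2.17 (limits), Dclk2 -0.23 (thinned) and -0.14 (limits), Stmn1 0.67 (limma) and 1.09 (limits), and Pafah1b1 -0.30 (replicate block), -0.058 (thinned) and -0.062 (all cells). Mean log2 differences turned with Mki67 for Dclk2 (-0.038 with log2(CPM + 10), -0.087 without astroglial cells, -0.34 without cells with genes of other types, -1.47 with the limits) and Pafah1b1 (0.024 with log2(CPM + 10), 0.56 with the limits), and with Rbfox3 for Dclk2 (-0.021 with log2(CPM + 10), -0.79 without cells with genes of other types), Stmn3 (-0.095 without those cells) and Pafah1b1 (-0.072 without astroglial cells, -2.35 with the limits). Leaving out a library group gave Mki67 fold changes of -0.95 to 0.52 for Dclk1, -1.10 to 0.52 for Dclk2 and -0.085 to 0.34 for Stmn1, Rbfox3 fold changes of -0.34 to 0.41 for Dcx, -0.51 to 1.21 for Dclk2, -0.63 to 0.92 for Pafah1b1, -0.35 to 0.049 for Stmn1 and -0.40 to 0.56 for Stmn3, Mki67 mean differences of -1.35 to 1.07 for Dclk1 and -0.48 to 0.25 for Pafah1b1, and Rbfox3 mean differences of -0.40 to 0.68 for Dclk2, -0.069 to 0.78 for Map2, -0.98 to 0.83 for Pafah1b1 and -0.31 to 1.02 for Stmn3. Depth limits the low shares: at 1110182 counts per cell, 63.0% of cells had a Mapt count and 38.0% a Dclk2 count.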

Other observations

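The 12 Mki67-low cells with Rbfox3 from 10 to under 100 CPM entered no comparison. Their median was 3620 CPM for Dcx, 572 CPM for Dclk1, 9616 CPM for Map1b and 130 CPM for Mapt, each above the medians of the Rbfox3-high and the Rbfox3-low class. Their median of Map2 was 102 CPM, below both. All 12 cells had counts of Dclk1 and Mapt, and 4 had a count of Dclk2. The difference of these cells from either class was not tested.

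Another 2 cells had Mki67 between 10 and 100 CPM. They held 1194 and 1507 CPM of Dcx, 929 and 663 CPM of Mapt and 796 and 247 CPM of Stmn3. The first of them was the cell with the lowest total, 15071 counts.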
